A study of Homo sapiens with 6 samples.

Results

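The genes of caspases, the apoptosome and their inhibitors described here number 8 and act where an apoptotic signal reaches the caspases, the proteases that carry out apoptosis. They are the caspase genes CASP8, CASP9, CASP2 and CASP6, the apoptosome scaffold APAF1, the inhibitor of apoptosis (IAP) genes XIAP and BIRC2, and the IAP antagonist DIABLO. Every probe set whose only gene symbol in the platform's annotation is one of these 8 was taken, which gave 29 of the 49293 non-control probe sets on the array and 8 of the 18132 genes they name. RNA came from HCT116 cells, an established human colorectal cancer line, 72 h after transduction with a lentivirus encoding an shRNA against PNO1 (sh-PNO1, 3 arrays) or a control shRNA (sh-Ctrl, 3 arrays). Both groups therefore carry a lentivirus and a hairpin, the labels name no further hairpin against PNO1, and PNO1 is a factor of small ribosomal subunit maturation. The labels do not say whether replicates were separate cultures, so every p-value below rests on the variation among 3 arrays a group, and that variation may be technical.

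Apoptosis is started by initiator caspases, which are activated on protein platforms and then cleave the executioner caspases that dismantle the cell. Death receptors gather CASP8 through the adaptor FADD. Damaged mitochondria release cytochrome c, which lets APAF1 assemble into the apoptosome, the wheel-shaped platform that activates CASP9. XIAP binds and blocks caspases directly, BIRC2 (cIAP1) is a ubiquitin ligase of the tumour necrosis factor receptor complex, and DIABLO (Smac) leaves mitochondria together with cytochrome c and relieves caspases of their IAPs.

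PNO1 itself was lower on all 3 of its probe sets. The brightest kept 19.8% of the control signal (log2 fold change −2.33 ± 0.04 SE) and the others 28.7% and 29.1%. The arrays had median intensities of 25.6 to 25.9, and log2 values correlated at r = 0.9981 to 0.9987 within and 0.9916 to 0.9929 between groups. The epithelial markers EPCAM, KRT8, KRT18 and KRT19 had mean intensities of 1878 to 3000 in both groups and CDH1 of 287 in sh-PNO1 and 232 in sh-Ctrl; KRT19 (log2 fold change 0.37) and CDH1 (0.31) were among the genes called higher. By contrast, the 6 markers of blood, endothelial and stromal cells that were measured had group means of 3.65 to 19.8. The log2 ratio of the 3′ to the 5′ ACTB control, a sign of RNA quality, was 2.25 for sh-PNO1 replicate 2 and 1.73 to 1.87 for the other arrays. The same ratio for GAPDH was −0.08 to −0.06 in sh-PNO1 and −0.03 to −0.01 in sh-Ctrl, so it separated the groups by a small step, and its part in the results was not tested. Without sh-PNO1 replicate 2 all 10 member probe sets that passed still passed, and of the list genes that passed AVEN lost its call. Values come from RNA of whole cultures, so a change in the share of cells and a change in RNA per cell cannot be told apart.

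The promoters of 4 genes are shown because their transcripts start there. BIRC2, DIABLO and CASP6 changed on every probe set counted, and CASP9 on the brighter one. CASP8 and CASP2 also changed on their brightest probe set, but their promoters are not shown. BIRC2 and CASP9 were higher and DIABLO and CASP6 lower after PNO1 knockdown. Each is the first window listed for its gene by RefSeq on GRCh38.p14, running 5′ to 3′ on the gene's strand from 250 bases before to 50 bases after a start site. Capitals mark matches on either strand to the cAMP response element TGACGTCA, the GC box GGGCGG or the CCAAT box CCAAT. The first of these was chosen after the BIRC2 sequence had been read, and matches that overlap or touch run together.
BIRC2, chr11:102346964-102347263, plus strand: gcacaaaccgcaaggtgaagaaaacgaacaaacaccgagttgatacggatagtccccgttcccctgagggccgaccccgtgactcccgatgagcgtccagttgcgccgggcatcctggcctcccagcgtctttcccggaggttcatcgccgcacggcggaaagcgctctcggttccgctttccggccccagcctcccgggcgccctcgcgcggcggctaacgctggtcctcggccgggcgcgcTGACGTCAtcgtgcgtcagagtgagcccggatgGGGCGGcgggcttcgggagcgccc
CASP9, chr1:15524166-15524465, minus strand: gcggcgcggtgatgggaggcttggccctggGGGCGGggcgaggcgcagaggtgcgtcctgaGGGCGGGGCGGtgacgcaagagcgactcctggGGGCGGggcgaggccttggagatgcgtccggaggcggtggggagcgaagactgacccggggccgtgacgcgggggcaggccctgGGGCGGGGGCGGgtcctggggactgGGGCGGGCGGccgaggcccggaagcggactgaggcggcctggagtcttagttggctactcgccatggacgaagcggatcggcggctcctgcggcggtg
DIABLO, chr12:122226519-122226818, minus strand: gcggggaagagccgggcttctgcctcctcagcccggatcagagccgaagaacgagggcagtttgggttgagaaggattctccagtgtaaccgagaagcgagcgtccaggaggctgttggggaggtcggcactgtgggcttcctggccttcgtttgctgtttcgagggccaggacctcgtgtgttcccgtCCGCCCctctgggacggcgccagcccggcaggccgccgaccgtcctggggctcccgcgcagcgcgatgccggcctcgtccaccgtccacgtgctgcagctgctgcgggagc
CASP6, chr4:109703396-109703695, minus strand: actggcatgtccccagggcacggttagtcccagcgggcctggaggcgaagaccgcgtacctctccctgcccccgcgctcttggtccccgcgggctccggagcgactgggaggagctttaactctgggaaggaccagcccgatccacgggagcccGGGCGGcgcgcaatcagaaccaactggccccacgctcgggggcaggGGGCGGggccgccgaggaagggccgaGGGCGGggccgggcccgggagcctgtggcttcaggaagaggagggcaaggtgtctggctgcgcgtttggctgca

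All 4 windows were rich in G and C, between 68.3% (DIABLO) and 76.0% (CASP9). The BIRC2 window held a complete cAMP response element that began 7 bases before the start site, and the second BIRC2 window, which overlaps the first, held the same element. That motif occurred in 1.85% of the 35116 promoter windows of the same length, and in no window of the other 7 genes. It was picked after the BIRC2 sequence had been read, so this share does not measure how unusual the match is. The CASP9 window held 8 GC boxes, that of CASP6 3, and those of BIRC2 and DIABLO 1 each, a motif found in 45.0% of all windows. None of the 4 windows shown held a CCAAT box, which 34.6% of all windows did. Windows not shown did hold 1 each, namely window 2 of CASP9 and windows 2 and 3 of DIABLO. These matches describe the letters only, and no binding was measured.

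Of the 29 probe sets, 7 were higher and 3 lower in sh-PNO1 at a limma adjusted p under 0.05, tested among all 49293 probe sets. Over the whole array 14.8% of probe sets were higher and 13.2% lower, 28% together, so the members' share of calls lay near the background. The median log2 fold change was −0.05 over the 29 and 0.01 over all probe sets. Groups did not overlap in 13 of the 29, against 40.2% of all probe sets. By gene, BIRC2 was higher on 5 of 5 probe sets, CASP9 on 1 of 2 and CASP8 on 1 of 8, DIABLO and CASP6 were lower on their only probe set and CASP2 on 1 of 3, and none of the 4 APAF1 and 5 XIAP probe sets passed. Among the 10 probe sets that passed the median size of the change was 0.51 on the log2 scale, beside 0.32 among all probe sets that passed. That median leans on 1 gene, because 5 of the 10 were readings of BIRC2 (0.44 to 0.59). The others were CASP9 (0.50), CASP8 (0.34), DIABLO (−0.65), CASP6 (−0.22) and CASP2 (−0.16), so it does not show larger changes in the members as a group.

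**Figure D1:**
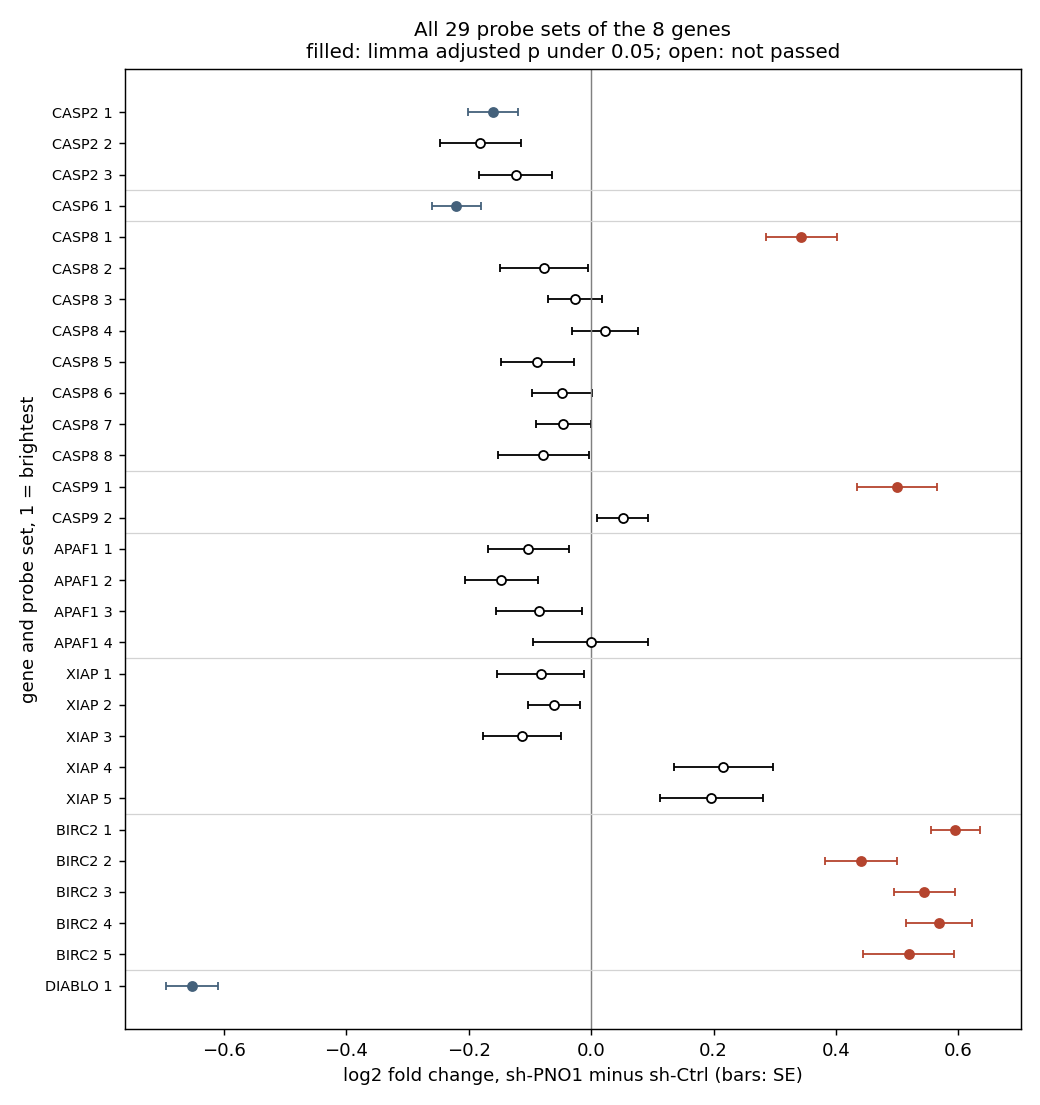
Log2 fold change (sh-PNO1 minus sh-Ctrl, horizontal axis) of each of the 29 probe sets, numbered by intensity within its gene, with bars for the SE. Filled points passed limma at an adjusted p under 0.05 (red higher, blue lower in sh-PNO1) and open points did not; the 5 BIRC2 points lie between 0.44 and 0.59 and the DIABLO point at −0.65.

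The probe sets that passed were among the brighter ones. In 10 of the 29 probe sets both group means were under an intensity of 20, and 0 of these passed, while 10 of the other 19 did. The like shares over all probe sets of the array were not counted, so this split is not shown to be particular to the members. The array carries 23 background probe sets of rising GC content, with mean intensities of 2.52 to 804 in sh-PNO1 and 2.54 to 741 in sh-Ctrl, and no member exceeded the brightest of them in either group. The 4 of highest GC content were themselves 0.09 to 0.12 higher in sh-PNO1 on the log2 scale, and their part in the results was not tested. The GC content of the member probes was not used here, so a dim probe set may or may not be above its own background.

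BIRC2, the ubiquitin ligase, rose on all 5 of its probe sets. Its brightest probe set (11757937_s_at) read 687, 683 and 696 on the sh-PNO1 arrays, against 461, 453 and 455 on the sh-Ctrl arrays. All sh-PNO1 values lay above all sh-Ctrl values, with a spread within each group of under 7 units of SD (689 ± 6.88 and 456 ± 4.30, SD, n = 3 each). The log2 fold change was 0.59 ± 0.04 SE, a 1.51-fold difference (limma adjusted p = 3.10e-05).

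The other 4 BIRC2 probe sets were higher as well. The second brightest read 548, 523 and 555 in sh-PNO1, against 432, 386 and 382 in sh-Ctrl, and the third 528, 523 and 520, against 347, 351 and 380. These sh-Ctrl values spread more than those of the brightest probe set but stayed below every sh-PNO1 value. The fourth read 163, 146 and 154 in sh-PNO1, against 108, 100 and 104 in sh-Ctrl. The dimmest read 77.1, 81.7 and 93.0 in sh-PNO1, against 55.4, 59.1 and 60.9 in sh-Ctrl. In each of the 5 probe sets the groups were fully apart, the log2 fold changes lay between 0.44 and 0.59, and the adjusted p was at most 0.00135. The 5 changes could not be told apart from each other in a test of unequal change within the gene (limma diffSplice adjusted p = 0.604). Genes with at least 5 probe sets numbered 2040, and in 37 of them (1.81%) all probe sets were called higher. Among the 11734 genes with at least 2 probe sets this held for 618 (5.27%). Both classes mix genes of unlike numbers of probe sets, and genes with exactly 5, like BIRC2, were not counted apart.

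XIAP, the IAP that inhibits caspases by direct binding, did not pass on any of its 5 probe sets. Its brightest probe set (11725699_at) read 263, 306 and 265 in sh-PNO1, against 292, 310 and 279 in sh-Ctrl (log2 fold change −0.08 ± 0.07 SE, with a limma adjusted p of 0.443). The sh-PNO1 replicate 2 array stood above the other sh-PNO1 arrays, inside the sh-Ctrl range. The second probe set read 161, 169 and 168 in sh-PNO1 against an identical 173 on all 3 sh-Ctrl arrays, so its groups did not overlap, by a narrow margin (−0.06 ± 0.04 SE, adjusted p = 0.338). The third read 81.2, 93.7 and 88.2 in sh-PNO1, against 94.8, 90.4 and 99.0 in sh-Ctrl (−0.11 ± 0.06 SE, adjusted p = 0.239).

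The dimmest XIAP probe sets had fold changes above 0 that did not pass. One read 22.0, 25.0 and 27.4 in sh-PNO1, against 21.6, 22.0 and 20.2 in sh-Ctrl (log2 fold change 0.22 ± 0.08 SE, adjusted p = 0.0873). The last read 8.84, 11.1 and 10.3, against 8.48, 9.24 and 8.56 (0.20 ± 0.08 SE, adjusted p = 0.126). Groups overlapped in both, and both passed without sh-PNO1 replicate 1 (adjusted p = 0.0192 and 0.0202). Unequal change within XIAP passed narrowly in diffSplice (adjusted p = 0.0396). No XIAP probe set passed when its difference from the others was tested in limma with its own spread (lowest adjusted p = 0.0680). These differences were at most 0.23 in size. In simulated data the direct test recovered 0% of changes of 0.3, but far fewer probe sets were changed there than were called in the real data. That share does not carry over, so whether the direct test could find differences of this size here is not known. No conclusion on the diffSplice call is drawn from it. The diffSplice call was lost without sh-PNO1 replicate 3 (adjusted p = 0.233) or sh-Ctrl replicate 1 (0.192), 2 (0.0819) or 3 (0.213).

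DIABLO, which frees caspases from IAPs, was the member with the largest change. Its only probe set (11741320_a_at) read 336, 347 and 355 on the sh-PNO1 arrays, against 546, 541 and 544 on the sh-Ctrl arrays. The groups were far apart for their spread (346 ± 9.49 and 544 ± 2.40, SD, n = 3 each). The signal in sh-PNO1 was 63.6% of that in sh-Ctrl (log2 fold change −0.65 ± 0.04 SE, limma adjusted p = 2.68e-05). With 1 probe set there is no second measurement of DIABLO on this array. The 3 genes nearest to DIABLO over the 6 arrays were found by Euclidean distance of centred log2 values. They were STK38 (0.043), ENC1 (0.048) and ADAR (0.049), with log2 fold changes of −0.63, −0.65 and −0.68. With groups so far apart for their spread, this distance mostly reflects the size of the group difference. It does not show that these genes vary together with DIABLO within a group. DIABLO was lower and BIRC2 higher on the same arrays.

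**Figure D2:**
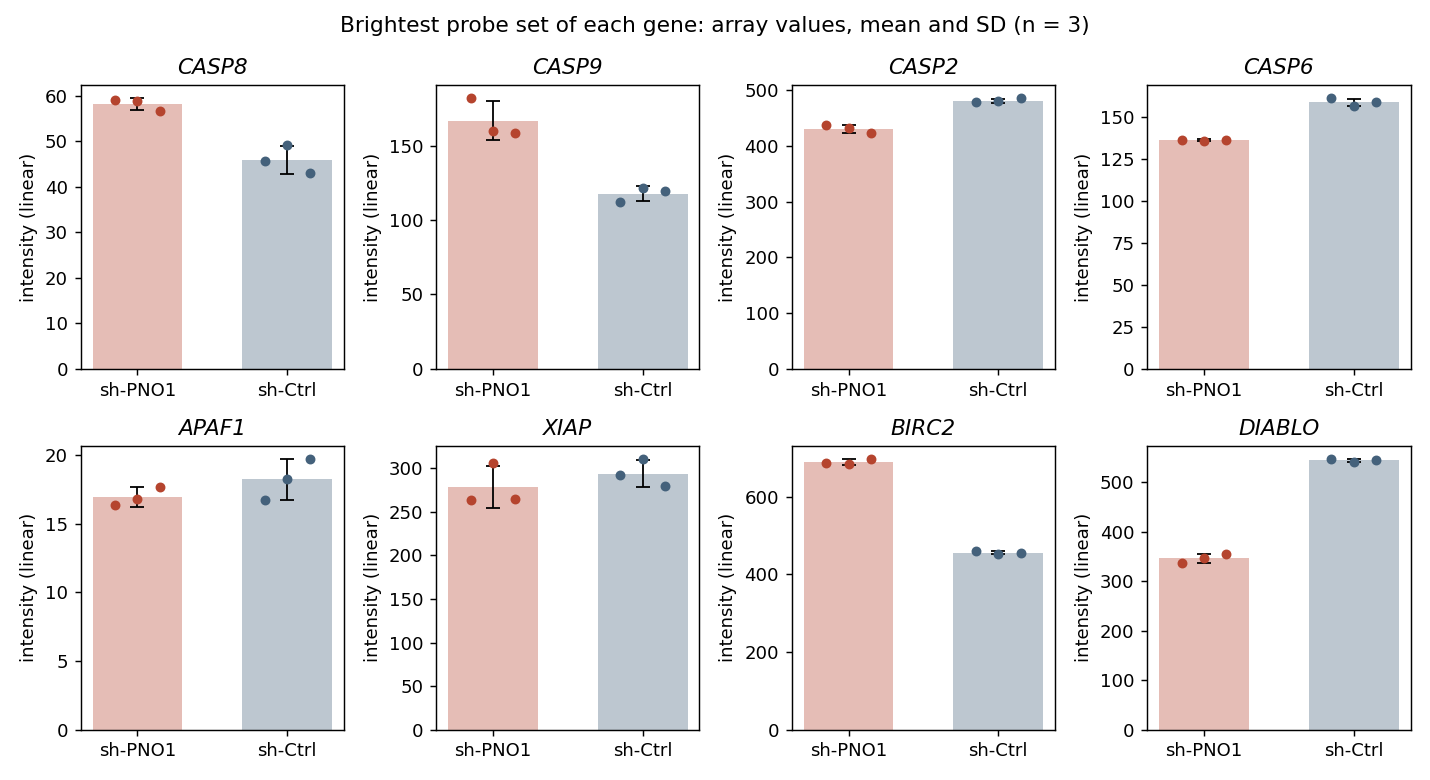
Linear intensity of the brightest probe set of each of the 8 genes on the 3 sh-PNO1 (red) and 3 sh-Ctrl (blue) arrays. Points are arrays, bars are means and whiskers the SD. For BIRC2 and DIABLO the points of each group sit close together and the groups lie far apart, while for APAF1 and XIAP they overlap.

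CASP9, the initiator caspase of the apoptosome, rose on 1 of its 2 probe sets. The brighter one (11748782_a_at) read 182, 160 and 158 in sh-PNO1, against 112, 121 and 119 in sh-Ctrl. The sh-PNO1 arrays all lay above the sh-Ctrl arrays, replicate 1 highest. Its log2 fold change was 0.50 ± 0.07 SE (1.41-fold, limma adjusted p = 8.15e-04). The other probe set read 73.4, 71.0 and 70.3 in sh-PNO1, against 69.8, 68.1 and 69.3 in sh-Ctrl. These values also did not overlap, but by a narrow margin (0.05 ± 0.04 SE, adjusted p = 0.420). The difference between the changes of both probe sets was itself significant, 0.45 ± 0.07 SE on the log2 scale when tested directly (limma adjusted p = 0.00381), and unequal change passed in diffSplice (adjusted p = 8.95e-04).

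APAF1, which builds the platform for CASP9, was dim throughout and no probe set passed. Its brightest (11741241_a_at) read 16.3, 16.8 and 17.7 in sh-PNO1, against 16.8, 18.2 and 19.7 in sh-Ctrl (log2 fold change −0.10 ± 0.07 SE, with a limma adjusted p of 0.304). The second read 11.5, 12.2 and 11.3 in sh-PNO1, against 13.3, 13.5 and 12.0 in sh-Ctrl (−0.15 ± 0.06 SE, adjusted p = 0.113), and passed when sh-Ctrl replicate 3 was left out (−0.20, adjusted p = 0.0410). The third stood at −0.09 and the dimmest, with means of 5.25 and 5.22, at −0.0007. These levels sat below those of the 8 background probe sets of highest GC content.

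CASP8, the initiator of death receptors, was read by 8 probe sets and rose on 1. That one, the brightest (11728978_x_at), read 58.9, 58.8 and 56.7 in sh-PNO1, against 45.7, 49.1 and 42.9 in sh-Ctrl. The groups did not overlap, and the log2 fold change was 0.34 ± 0.06 SE (1.27-fold, limma adjusted p = 0.00287). The second brightest read 36.9, 43.7 and 38.7 in sh-PNO1, against 39.5, 42.2 and 44.0 in sh-Ctrl (−0.08 ± 0.07 SE, adjusted p = 0.478). The third read 29.9, 29.6 and 31.5 in sh-PNO1, against 30.9 on every sh-Ctrl array (−0.03 ± 0.04 SE, adjusted p = 0.704).

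The remaining 5 CASP8 probe sets, at mean intensities of 4.65 to 21.0, changed by −0.09 to 0.02 with overlapping groups. The brightest probe set differed from the mean of the other 7 by 0.39 ± 0.08 SE on the log2 scale (direct limma test, adjusted p = 0.0148). Unequal change was also called by diffSplice (adjusted p = 0.00154). Over all genes with 2 or more probe sets 23.4% were called unequal by diffSplice, and 3 of the 6 members with 2 or more were (CASP8, CASP9 and XIAP). Of diffSplice calls in data simulated with log2 changes of 0.5, 17.5% were false, so the direct test, which called 12.4% of 38590 probe sets, was added after seeing the data, and it called CASP8 and CASP9. The suffix _x_at of the brightest CASP8 probe set marks probes that can match other transcripts.

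**Figure D3:**
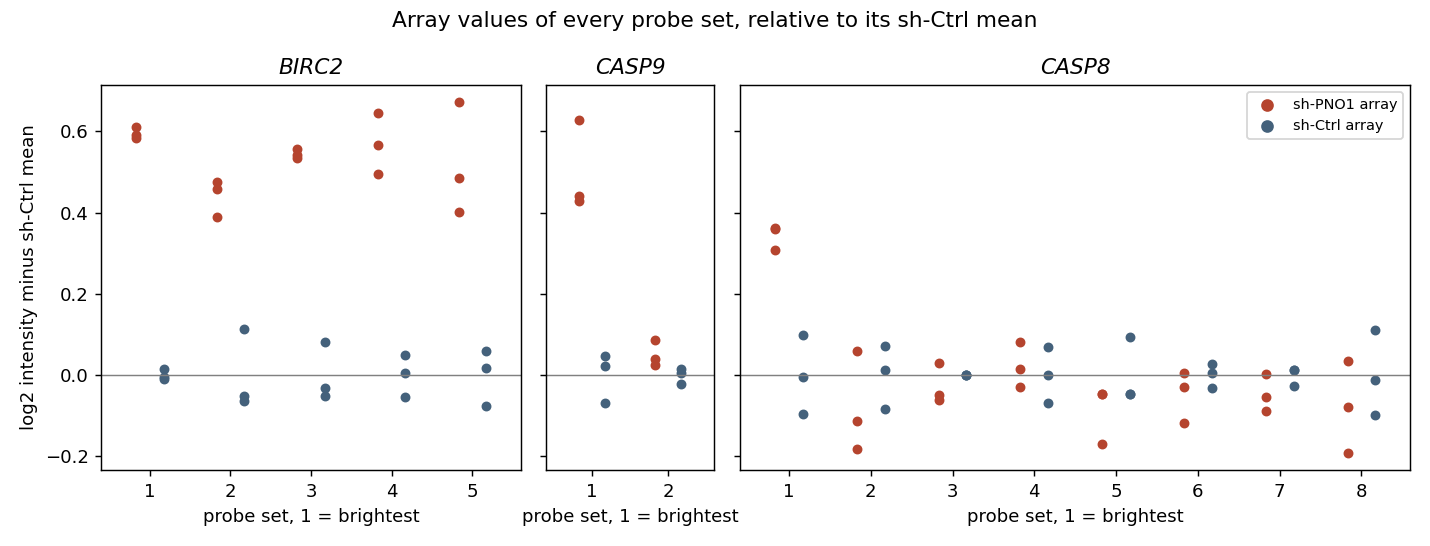
Log2 intensity of each array minus the sh-Ctrl mean of the same probe set (vertical axis), for every probe set of BIRC2, CASP9 and CASP8, numbered by intensity. All 5 BIRC2 probe sets show the sh-PNO1 arrays (red) above the sh-Ctrl arrays (blue), whereas CASP9 and CASP8 show a wide gap on the brightest probe set only.

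CASP2, an initiator caspase activated on the PIDD1 platform, and CASP6, an executioner caspase, were slightly lower. The brightest CASP2 probe set (11720035_s_at) read 437, 432 and 423 in sh-PNO1, against 479, 480 and 485 in sh-Ctrl. The groups were apart by a small step, 89.5% of the control signal (log2 fold change −0.16 ± 0.04 SE, limma adjusted p = 0.0204), and the call was lost without sh-PNO1 replicate 3 (adjusted p = 0.0555), sh-Ctrl replicate 2 (0.0521) or sh-Ctrl replicate 3 (0.0567). The second CASP2 probe set read 23.3, 22.3 and 19.9 in sh-PNO1, against 25.4, 24.8 and 23.8 in sh-Ctrl (−0.18 ± 0.07 SE, adjusted p = 0.0778), with groups apart, and passed without sh-PNO1 replicate 1 (adjusted p = 0.0487). The dimmest read 9.49, 8.37 and 8.79, against 9.37, 10.1 and 9.49 (−0.12, adjusted p = 0.174). The 3 changes could not be told apart (diffSplice adjusted p = 0.879).

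The CASP6 probe set (11736215_x_at) read 136.4, 135.7 and 136.2 in sh-PNO1, against 161, 156 and 159 in sh-Ctrl. All sh-PNO1 values lay below all sh-Ctrl values, and the signal was 85.9% of the control (log2 fold change −0.22 ± 0.04 SE, limma adjusted p = 0.00447). As for CASP8, the suffix _x_at marks probes that can match other transcripts. A pair of further probe sets lists CASP6 together with PLA2G12A, so they were not counted. They stood at −0.27 (adjusted p = 0.00286) and −0.16 (adjusted p = 0.0566), with all sh-PNO1 arrays below all sh-Ctrl arrays in both.

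The wider pathway was read through 5 lists from textbook knowledge, each gene by the probe set with the highest mean over all 6 arrays, with adjustment over all 18132 genes. Of the 55 genes measured 14 rose and 6 fell, beside 20% of all genes higher and 14.2% lower (34.1% together). By the same reading of 1 probe set a gene, 3 of the 8 members were higher and 3 lower. The median log2 fold change was 0.02 over the 55 and 0.03 over all genes. The lists hold 5 further genes that were not analysed here.

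Among adaptors and regulators of initiator caspases 6 of 10 rose and 1 fell, with a median of 0.22. DEDD2, a death effector domain protein, rose by 0.54 ± 0.06 SE (limma adjusted p = 2.26e-04), the CASP2 adaptor CRADD by 0.35 ± 0.05 SE (2 of 4 probe sets), the receptor adaptor TRADD by 0.33 ± 0.05 SE (1 of 2) and the FAS-associated factor FAF1 by 0.31 ± 0.05 SE (1 of 4). DEDD also rose (0.36, 4 of 5 probe sets). CASP8AP2, a partner of CASP8, was lower by the largest amount (−0.67 ± 0.07 SE, adjusted p = 2.83e-04), with 176 ± 13.6 in sh-PNO1 and 279 ± 20.3 in sh-Ctrl (SD, n = 3 each). PIDD1 stood just inside the threshold (0.13, adjusted p = 0.0498) and lost its call without any of the arrays but sh-PNO1 replicate 2 (adjusted p up to 0.123) and under 4 other settings (0.0564 to 0.0805). FADD, which brings CASP8 to death receptors, stood at −0.04 (adjusted p = 0.576), and CFLAR, the decoy that blocks it, at −0.01 (0.870), with no probe set of either passing.

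Among substrates of executioner caspases, listed together with the nuclease DFFB, 3 of 9 genes rose and 2 fell, with a median of −0.05. DFFA, the inhibitor of the nuclease that cuts DNA in apoptosis, rose by 0.37 ± 0.04 SE on its brightest probe set and passed on 3 of 4; the other one stood at −0.09 (adjusted p = 0.211). That one stands for DFFA when probe sets of suffix _x_at or _s_at are left out, which ends the gene's call (adjusted p = 0.198), although another DFFA probe set without these suffixes rose by 0.51 (adjusted p = 6.30e-04). The 3 rises include DFFB, the nuclease itself, but there the rule of the highest mean picked a probe set through its sh-PNO1 values, so its call as a gene is not independent of the change. That probe set read 43.4 ± 2.75 in sh-PNO1 and 27.0 ± 0.04 in sh-Ctrl (SD, n = 3 each). The probe sets of DFFB that were brighter in sh-Ctrl stood at 0.03 (adjusted p = 0.761) and 0.07 (0.272), and 1 of its 7 passed. ACIN1, a chromatin condensation factor, rose by 0.33 (1 of 3). The pore-forming GSDME (−0.43 ± 0.04 SE, adjusted p = 1.63e-04) and the kinase PAK2 (−0.39 ± 0.04 SE, 4 of 6 probe sets) were lower.

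Among cytochrome c, other released mitochondrial proteins and apoptosome regulators 2 of 10 rose and 2 fell, with a median of 0.08. CARD8 counts there as not passed (0.07, adjusted p = 0.470), on a probe set that was not its brightest in sh-Ctrl. ENDOG, a mitochondrial nuclease, rose by 0.29 ± 0.04 SE (adjusted p = 6.14e-04) and AVEN, which binds APAF1, by 0.16 ± 0.05 SE (adjusted p = 0.0329), a call that held without sh-PNO1 replicate 1 and was lost without any of the other arrays (adjusted p up to 0.101). CSE1L (−0.26 ± 0.04 SE) and ANP32A (−0.25 ± 0.05 SE), which have been described as apoptosome regulators, were lower, but neither passed without probe sets of suffix _x_at or _s_at (−0.15, adjusted p = 0.165, and −0.05, adjusted p = 0.464). The mitochondrial IAP antagonist HTRA2, which acts like DIABLO, stood at −0.06 (adjusted p = 0.337) with none of its 4 probe sets passing, and its difference from DIABLO was not tested.

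The other IAP genes and partners gave 1 rise and 0 falls among 10 in limma, with a median of 0.01 and 3 genes at an unadjusted p between 0.0191 and 0.0475 that did not pass (SEPTIN4, AREL1 and BIRC7). USP19, a deubiquitinase that binds cIAP proteins, rose by 0.35 ± 0.04 SE (adjusted p = 2.39e-04, 1 of 4 probe sets). Among inflammatory caspases and partners 2 of 16 rose and 1 fell, with a median of 0.002, and 10 of the 16 had group means under 20. The cytokine IL18 rose by 0.37 ± 0.06 SE (adjusted p = 0.00204), CASP4 was lower by 0.27 on the log2 scale (−0.27 ± 0.05 SE, 4 of 7 probe sets) and the inflammasome sensor NLRP1 was higher (0.27 ± 0.08 SE, adjusted p = 0.0313, 3 of 3 probe sets), though its groups overlapped on the brightest probe set and that call was lost without sh-PNO1 replicate 1 or 3 or sh-Ctrl replicate 1 or 2 (adjusted p up to 0.110).

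**Figure D4:**
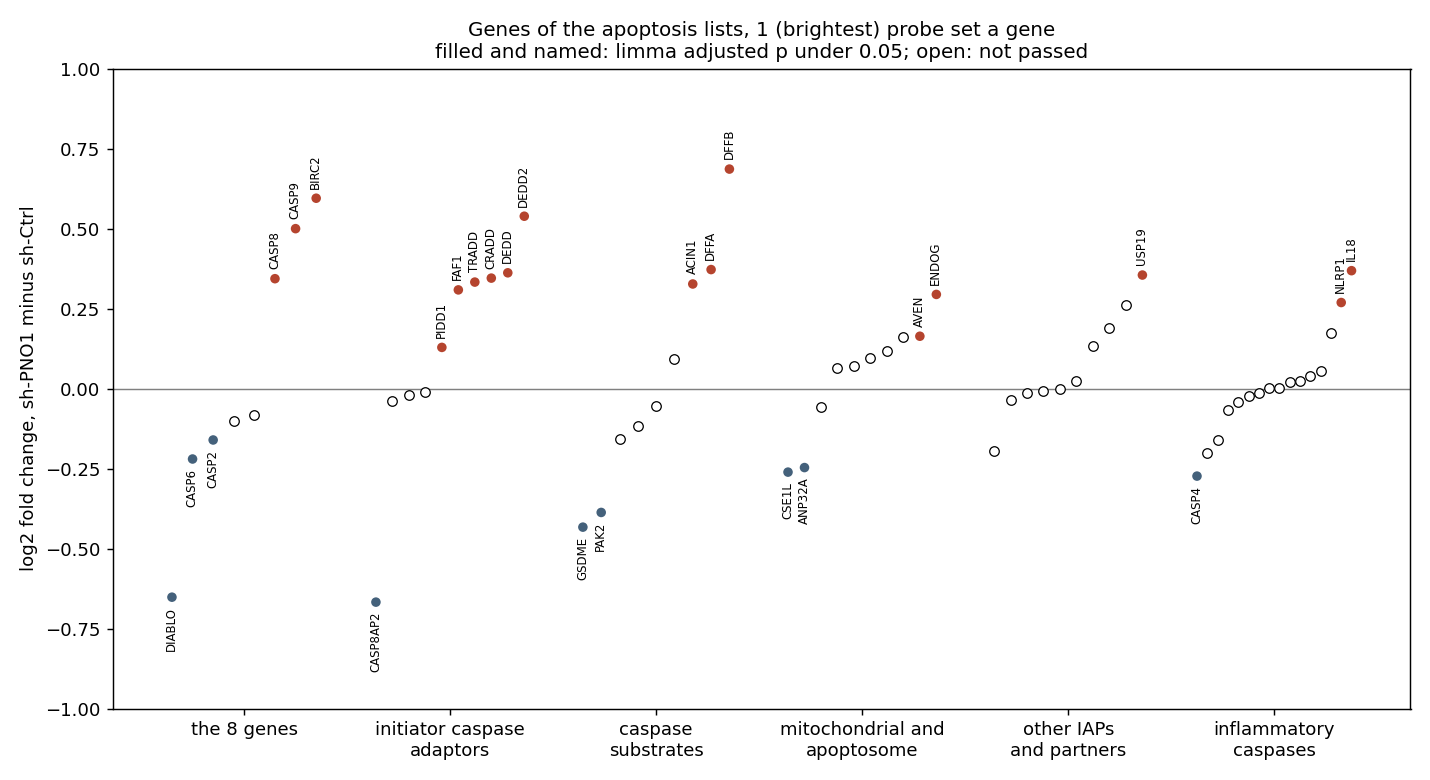
Log2 fold change (vertical axis, sh-PNO1 minus sh-Ctrl) of the 8 genes and of the genes of the 5 lists, 1 brightest probe set a gene, ordered within each list. Filled, named points passed limma at an adjusted p under 0.05; the adaptor list has 6 such points above 0 and CASP8AP2 alone below. The DFFB point is that of a probe set picked through its sh-PNO1 values.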

How the data were processed

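Arrays of 3 sh-PNO1 and 3 sh-Ctrl samples were compared. RMA is named, without a version, per the submitters' processing notes. The authors deposited 1 linear intensity per probe set and array, and since array medians are nearly equal, changes are relative to the other genes of an array. For the software and the build, the sources used here give nothing. Log2 was taken first. Of 49395 probe sets 102 were controls, 44988 had 1 gene symbol, 1832 several and 2473 were not listed in the platform's table. Probe sets were tested in limma (version 3.58.1, R version 4.3.3; lmFit, eBayes, no covariate, Benjamini-Hochberg, adjusted p under 0.05), genes by their brightest probe set likewise, and unequal change within 11734 genes with diffSplice. Groups and replicate numbers came from titles. The number of arrays limits precision.

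The 8 genes and the lists were chosen with earlier results of these data known. Named genes are the 8, PNO1, up to 5 of each list with the smallest adjusted p that passed, and the 3 nearest to the most changed member; others were named after their values were seen. In simulated data for sh-PNO1 against sh-Ctrl with 200 of 49293 probe sets changed, limma recovered 73.5% of log2 changes of 0.5 (7.55% false calls) and 0% of 0.3. For diffSplice on 11734 genes 17.5% of calls were false at both 0.5 and 1 and 41.2% at 0.3. A direct limma test of each probe set against the others of its gene was therefore added after seeing the data. In simulation it had 4.13% false calls and recovered 55.1% at 0.5, and it recovered 0% at 0.3 (38590 probe sets). In the real data 28% of probe sets were called, far more than were changed in the simulation. Changes of −0.16 (CASP2) and −0.22 (CASP6) passed there, so the simulated shares do not carry over to the data. Sequences are from RefSeq, in which all 8 genes were matched by symbol.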

Additional observations from a re-analysis of the deposited data

How the results depend on the processing

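Alternatives were a block for the replicate number, a trended and robust prior (for diffSplice robust only), quantile normalisation repeated, equal array medians, 16 added to every intensity, the dimmest 30% left out, an unmoderated statistic, probe sets of suffix _x_at or _s_at left out, averaged probe sets for the list genes, and each array left out in turn. Of 136 values of the 10 member probe sets that passed, 132 kept their call, 4 (all of CASP2) lost it and 0 changed sign; of 249 values of the other 19, 5 passed and 8 changed sign. Without _x_at and _s_at probe sets 1 member probe set was lower (DIABLO), since those of CASP2 and CASP6 carry these suffixes, and 1 member changed unequally (CASP9), since the CASP8 call rests on such a probe set and XIAP had an adjusted p of 0.113; XIAP also lost its call with 16 added (0.0629). The sign changes were those of the dimmest APAF1 probe set (0.000624 with quantile normalisation repeated, 0.00134 with 16 added, and −0.113 to 0.0744 with single arrays left out) and of the fourth CASP8 probe set (−0.0119 to 0.0572 with single arrays left out). With single arrays left out, 7 to 9 member probe sets were higher and 2 to 4 lower, 2 or 3 members changed unequally, and 11 to 13 list genes were higher and 6 or 7 lower. With the replicate block 7 and 3 member probe sets passed, the brightest CASP2 one dropping out (adjusted p = 0.0558) and the second entering (0.0493), and 12 list genes were higher, AVEN (0.0595) and PIDD1 (0.0805) dropping out. PIDD1 also lost its call with equal medians (0.0606), the unmoderated statistic (0.0564) and without _x_at and _s_at probe sets (0.0638), and AVEN (0.0730) and NLRP1 (0.133) with the unmoderated statistic. Same-numbered samples deviated together at r = −0.04, 0.10 and −0.03, beside at most 0.07, −0.05 and 0.09 with samples of other numbers. Only replicate 2 was closer to its own number, and so few values cannot settle whether the numbers pair the samples. The direct test called 2 members unequal.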

Other observations

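Several genes of the lists did not pass on their brightest probe set while others did; they were named after their values were seen. BIRC5 (survivin), an IAP that also works in chromosome segregation, stood at 604 ± 29.2 in sh-PNO1 and 605 ± 20.3 in sh-Ctrl (SD, n = 3 each) on its brightest probe set, yet another of its 12 read 47.8 ± 2.28 in sh-PNO1 and 94.4 ± 2.76 in sh-Ctrl (log2 fold change −0.98 ± 0.05 SE, limma adjusted p = 1.01e-05), and a dim one changed by −0.60 (adjusted p = 0.00588). CYCS, cytochrome c, read 3927 ± 132 in sh-PNO1 and 3621 ± 174 in sh-Ctrl on its brightest probe set (0.12, adjusted p = 0.142). The second CYCS probe set rose (0.29 ± 0.04 SE, adjusted p = 0.00146) and the dimmest was lower (−0.44 ± 0.05 SE, adjusted p = 3.81e-04). CARD8, a caspase recruitment domain protein, was lower on 4 of 10 probe sets, by up to −0.73 ± 0.06 SE (adjusted p = 9.66e-05), all of them with group means under 24.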
